A study of Canis lupus familiaris with 28 samples.

Results

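The canine oral malignant melanomas (OMMs) with the highest and the lowest levels of melanin-synthesis genes were compared. For each of 28 tumours the log2 values of 5 pigment genes (PMEL, MLANA, TYR, TYRP1 and DCT, each read at its brightest Transcript cluster) were averaged to give a pigment gene level, and the tumours were ranked by it. The 9 highest OMMs were taken as pigment-gene-high and the 9 lowest as pigment-gene-low, which leaves 10 middle OMMs in neither group. The groups were thus chosen by measured values, so the 5 genes are described without a test and every test below concerns other genes or labels. No label states whether a tumour was visibly pigmented.

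Each sample was the primary oral tumour of 1 dog, taken from a formalin-fixed paraffin-embedded block, and 1 gene array was hybridised per tumour. The series holds 18 tumours that metastasised (M) and 10 that did not metastasise (NM), from dogs of several breeds, and tumours received no experimental treatment. The pigment-gene-high group held 6 M and 3 NM OMMs, which came from 4 Golden Retrievers and 1 each of Labrador Retriever, Border Collie, Bullmastiff, Great Dane and cross breed. The pigment-gene-low group held 4 M and 5 NM OMMs, which came from 3 cross breeds, 2 Dachshunds and 1 each of Golden Retriever, Labrador Retriever, Bouvier des Flandres and Irish Terrier. A biopsy holds melanoma cells together with stroma, blood cells and, often, covering mucosa, so fewer cells of a type and less RNA per cell cannot be told apart in any value below. RNA integrity, listed by the authors for each dog, also ran with the groups and is described with the array-wide signal. A Transcript cluster is the set of array probes along one transcribed locus, and values are RMA log2 signals.

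Melanin is made in melanosomes, which are organelles related to lysosomes. PMEL builds the fibrils on which melanin is laid down, MLANA assists PMEL, and the enzymes TYR, TYRP1 and DCT turn tyrosine into pigment. In the melanocytes of humans and mice these genes are switched on by MITF, a transcription factor that acts with SOX10 and PAX3, and cargo is brought to the melanosome by a transport machinery that it partly shares with the lysosome.

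The pigment gene level ran from 3.04 to 5.92 in the pigment-gene-high OMMs, with a median of 4.501, and from 1.45 to 2.09 in the pigment-gene-low OMMs, with a median of 1.74. The last tumour inside the high group was M OMM replicate 8, at 3.04, and the next one outside it was M OMM replicate 13, at 2.71. On the low side M OMM replicate 4, at 2.09, was the first inside and NM OMM replicate 5, at 2.12, the nearest outside, so the lower border fell in a continuous run of tumours. Within the high group 5 tumours stood at 4.501 or above (M replicate 7, NM replicate 2, M replicate 10, NM replicate 3 and M replicate 18) and 4 at 3.35 or below. The 5 genes did not move as one in these tumours. TYRP1 ran from 1.05 to 8.13 in the pigment-gene-high OMMs, with a median of 4.11, and from 0.99 to 1.84 in the pigment-gene-low OMMs, with a median of 1.17. TYRP1 was at 1.05 in M replicate 16, 1.21 in M replicate 8 and 1.95 in NM replicate 1, where PMEL was at 5.78, 5.77 and 5.64. PMEL itself ran from 4.74 to 6.74 in the high group and from 1.70 to 3.24 in the low group. MLANA had medians of 3.534 and 1.599, TYR of 2.43 and 1.28 and DCT of 5.09 and 2.31 in pigment-gene-high and pigment-gene-low OMMs.

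**Figure D1:**
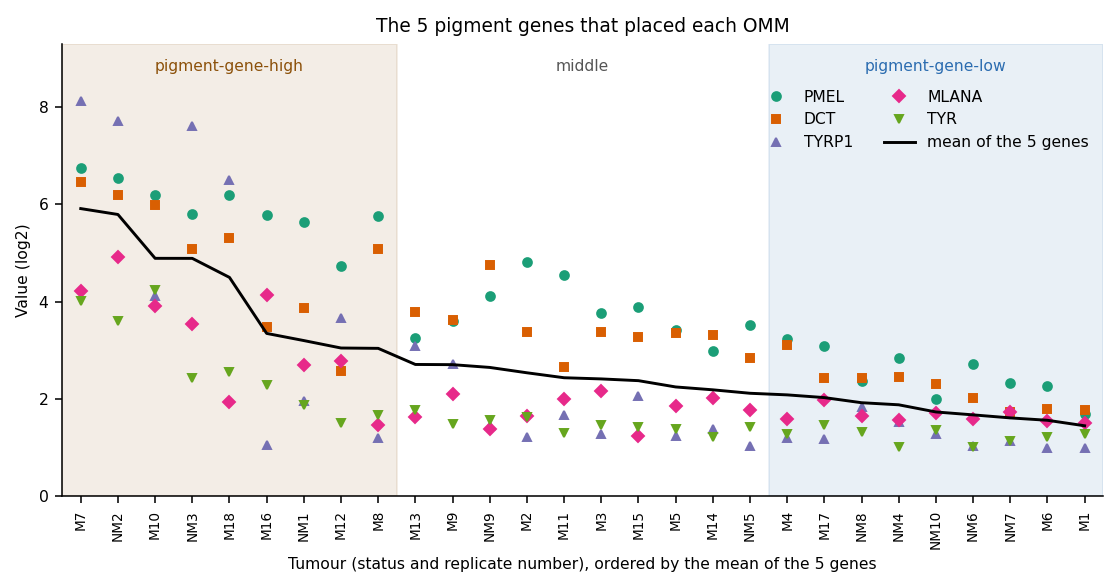
Log2 values of PMEL, DCT, TYRP1, MLANA and TYR (points) and their mean (line) in each of the 28 OMMs, ordered from the highest mean at the left to the lowest at the right; M and NM with the replicate number name the tumour. The 9 tumours shaded at the left are pigment-gene-high and the 9 at the right pigment-gene-low, and TYRP1 spreads widest, from 1.05 to 8.13 within the high group.

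CDK2, GM2A, the melanosome genes RAB38 and GPNMB and the lineage factor MITF were among the genes higher in the pigment-gene-high OMMs. Apart from the 5 genes of the rule, 32386 Transcript clusters were tested with limma, and 269 had higher values (0.831% of those tested) and 184 lower values (0.568%) in pigment-gene-high OMMs at an adjusted p under 0.05. The median log2 difference was 1.15 among the clusters called higher and -0.54 among those called lower, against -0.08 over all clusters tested. Of the called clusters, 199 of the higher and 74 of the lower carried 1 gene symbol. The count leaned on single tumours: it was 52 without M replicate 16 and 3702 without M replicate 12, and it was 8 when PMEL was left out of the pigment gene level. Each p value sets the difference between the groups against the spread between tumours of different dogs within them. Array-wide differences between the groups are part of what the p values measure. With each array's median centred, 275 clusters were higher and 82 lower.

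CDK2, a kinase that drives entry into DNA synthesis, gave the smallest p. Its log2 values were 4.53 at the lowest, 5.68 at the median and 6.82 at the highest in pigment-gene-high OMMs, against 1.81, 2.45 and 3.69 in pigment-gene-low OMMs. The groups did not overlap, and M replicate 18 was highest while NM replicate 1 was the lowest of the high group. The log2 difference was 3.13 ± 0.28 (SE, n = 9 in each group), with an adjusted p of 5.25e-05. The 10 middle OMMs ran from 2.54 to 5.15, between and across the groups. In the RefSeq gene order of the dog CDK2 is the next gene after PMEL, and in human melanocytes the pair is known to share control by MITF. PMEL was one of the 5 genes that placed the tumours, so the nearness of CDK2 to it is given beside this value, and its part in the result was not tested. Of 20 measured protein-coding neighbours of PMEL, 10 on each side, 3 were called, all higher (CDK2, ERBB3 and CD63), where 1.18% of all gene symbols were called higher. The genes directly around the pair had log2 differences of 0.33 (DGKA), 0.83 (RAB5B) and 0.03 (SUOX), with adjusted p values of 0.357, 0.0709 and 0.848. DGKA, RAB5B and SUOX were named after their values were seen.

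GM2A encodes a lysosomal protein that presents the ganglioside GM2 to its degrading enzyme. It ran from 3.35 to 5.08, with a median of 4.47, in pigment-gene-high OMMs and from 1.54 to 2.99, with a median of 1.95, in pigment-gene-low OMMs. These ranges did not overlap, and the log2 difference was 2.32 ± 0.25 (SE), with an adjusted p of 0.000442. The highest value of the series was in M replicate 12, a tumour near the lower border of the high group.

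Of 43 measured genes for melanosomes and pigment, with the 5 of the rule left out, 9 were higher and 0 lower in pigment-gene-high OMMs, against 1.18% higher and 0.442% lower of all 16290 gene symbols. The median log2 difference over the 43 genes was 0.31, against -0.04 over all symbols. RAB38, a small GTPase that delivers melanin enzymes to the maturing melanosome, ran from 4.47 to 7.11, with a median of 6.47, in pigment-gene-high OMMs and from 2.34 to 4.63, with a median of 2.91, in pigment-gene-low OMMs. All but M replicate 12 of the high group lay above the highest low tumour. The log2 difference was 2.85 ± 0.34 (SE), with an adjusted p of 0.000594. GPNMB, a glycoprotein of melanosomes and lysosomes that is related to PMEL, ran from 6.66 to 8.36 in pigment-gene-high OMMs (median 7.47) and from 2.44 to 5.54 in pigment-gene-low OMMs (median 4.45). Its groups did not overlap, and the highest value was in M replicate 7, the tumour with the highest pigment gene level. The log2 difference was 3.23 ± 0.40 (SE), with an adjusted p of 0.000793.

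HPS3, a subunit of the BLOC-2 complex that sorts cargo to melanosomes, ran from 2.56 to 4.54 in pigment-gene-high OMMs (median 3.54) and from 1.78 to 2.44 in pigment-gene-low OMMs (median 2.22). The groups did not overlap (log2 difference 1.54 ± 0.23, adjusted p = 0.00614). TRPM1, a cation channel of melanocytes, ran from 2.36 to 5.93 (median 4.27) in pigment-gene-high OMMs and from 1.39 to 2.11 (median 1.70) in pigment-gene-low OMMs. Its groups did not overlap either (log2 difference 2.61 ± 0.44, adjusted p = 0.0145), but the high group was spread, with M replicate 18 at 2.36, NM replicate 1 at 2.62 and M replicate 8 highest. The other genes called were LYST (1.63), a regulator of lysosome and melanosome size, BACE2 (1.88), a protease that trims PMEL, GPR143 (1.13), a receptor in the melanosome membrane, RAB27A (1.76), which tethers melanosomes to the actin motor, and CD63 (2.17), a tetraspanin that sorts PMEL. Their adjusted p values lay between 0.0212 for LYST and 0.0499 for CD63. These 5 genes and TRPM1 were named after their values were seen.

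Several genes with established roles in coat and skin colour did not pass the test. The log2 difference was 1.25 ± 0.36 (SE) for OCA2, a melanosomal anion channel (adjusted p = 0.0627), and 0.66 ± 0.20 for SLC45A2, a melanosomal transporter (adjusted p = 0.0706). OCA2 was spread in the high group, at 4.98 in NM replicate 3 and 1.94 in M replicate 10, while the pigment-gene-low OMMs ran from 1.38 to 2.02. SLC24A5, an ion exchanger of the melanosome, had a difference of 0.37 (adjusted p = 0.236), and MLPH, the linker between RAB27A and its motor, of 0.16 (adjusted p = 0.378). SLC24A5 and MLPH were named after their values were seen.

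**Figure D2:**
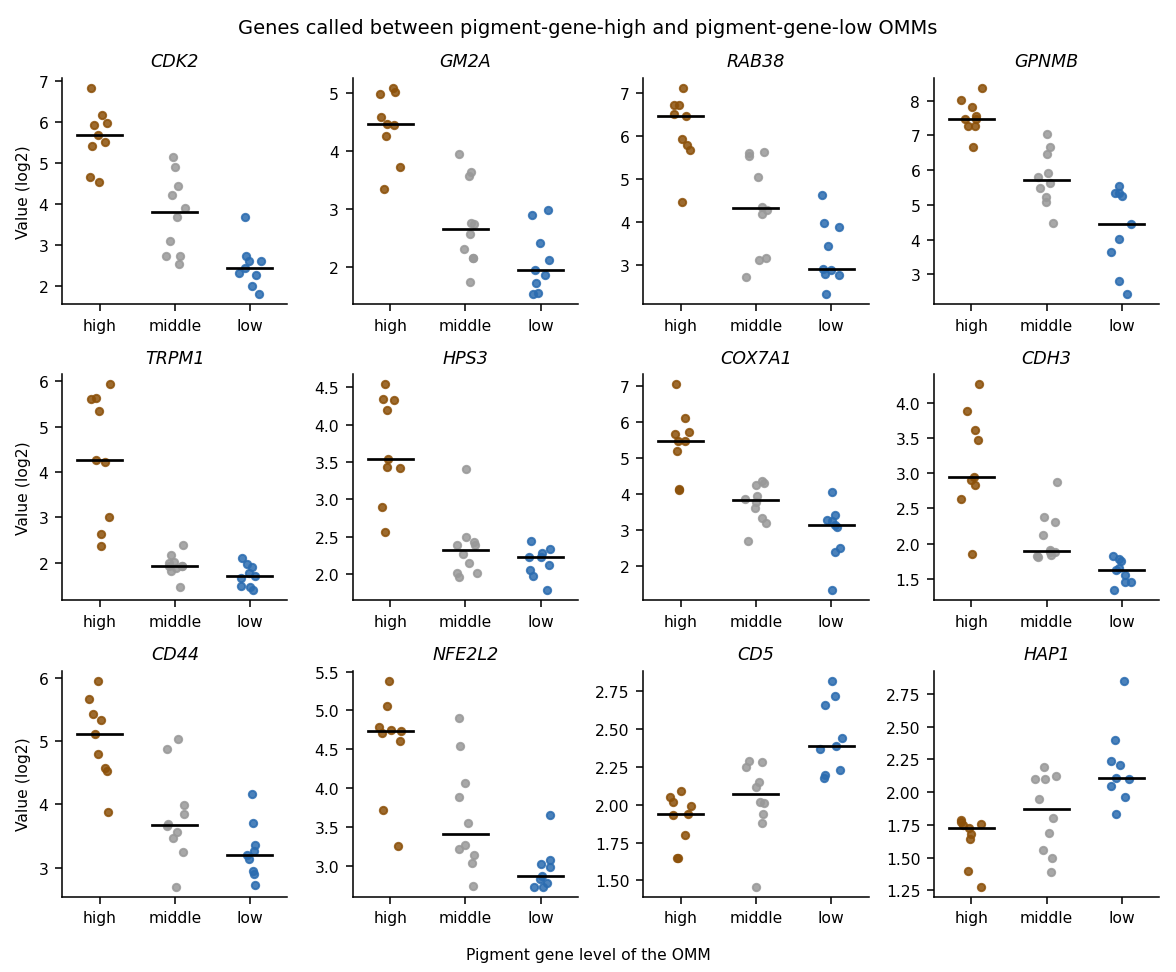
Log2 values of 12 called genes in the pigment-gene-high (n = 9), middle (n = 10) and pigment-gene-low (n = 9) OMMs, each point a tumour and each bar the group median; the vertical axes differ. CDK2, GM2A, GPNMB, TRPM1, HPS3, COX7A1 and CDH3 are higher in pigment-gene-high OMMs without overlap, CD5 and HAP1 are lower without overlap, and RAB38, CD44 and NFE2L2 overlap by 1 tumour of each group.

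Among the regulators and receptors of the melanocyte lineage, 5 of 30 measured genes were higher and 0 lower in pigment-gene-high OMMs, where 1.18% of all symbols were higher and 0.442% lower. The median log2 difference of the list was 0.14. MITF ran from 2.87 to 5.87, with a median of 4.48, in pigment-gene-high OMMs and from 1.93 to 2.89, with a median of 2.26, in pigment-gene-low OMMs. The groups met only at M replicate 7, which had the highest pigment gene level of the series and, at 2.87, the lowest MITF of its group. The log2 difference was 2.11 ± 0.32 (SE), with an adjusted p of 0.00614. PAX3, which acts upstream of MITF, had medians of 3.14 and 2.04 in pigment-gene-high and pigment-gene-low OMMs and a difference of 1.08 ± 0.24 (adjusted p = 0.0411). TFAP2A, a transcription factor of neural crest and melanocytes, differed by 1.12 ± 0.19 (adjusted p = 0.0143). MET, the receptor for hepatocyte growth factor, had medians of 4.23 and 1.93, with 8 of 9 pigment-gene-high OMMs above every pigment-gene-low OMM, and a difference of 2.06 ± 0.30 (adjusted p = 0.00569). ERBB3, a neuregulin receptor named after its values were seen, differed by 1.88 ± 0.33 (adjusted p = 0.0182).

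SOX10, which in human and mouse melanocytes activates MITF, did not pass the test, and its log2 difference was negative, at -0.56 ± 0.18 (SE, adjusted p = 0.0824). Its values were 2.36 at the lowest, 2.75 at the median and 2.96 at the highest in pigment-gene-high OMMs, against 2.53, 3.19 and 4.23 in pigment-gene-low OMMs. The pigment-gene-high OMMs formed the narrower set, and 6 of the 9 pigment-gene-low OMMs lay above all of them. POLR2F, a subunit of RNA polymerases and in RefSeq the next gene to SOX10, was higher in pigment-gene-high OMMs by 2.12 (adjusted p = 0.0104), and was the only one of 20 measured neighbours of SOX10 to be called. POLR2F was named after its values were seen. KIT, the receptor for stem cell factor, had a difference of 0.59 ± 0.20 (adjusted p = 0.0832) and EDNRB, an endothelin receptor of melanoblasts, of 0.64 ± 0.17 (adjusted p = 0.0558). The differences of MC1R, the melanocortin receptor that selects the type of pigment, and of SOX9 were -0.04 ± 0.11 and 0.00 ± 0.15 (adjusted p = 0.808 and 1.0). S100B, a marker of melanocytic and Schwann cells, was low in both groups, with medians of 1.32 and 1.43 in pigment-gene-high and pigment-gene-low OMMs (adjusted p = 0.304). MC1R and SOX9 were also low in both groups, with medians of 1.71 and 1.73 for MC1R and of 1.83 and 1.87 for SOX9.

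**Figure D3:**
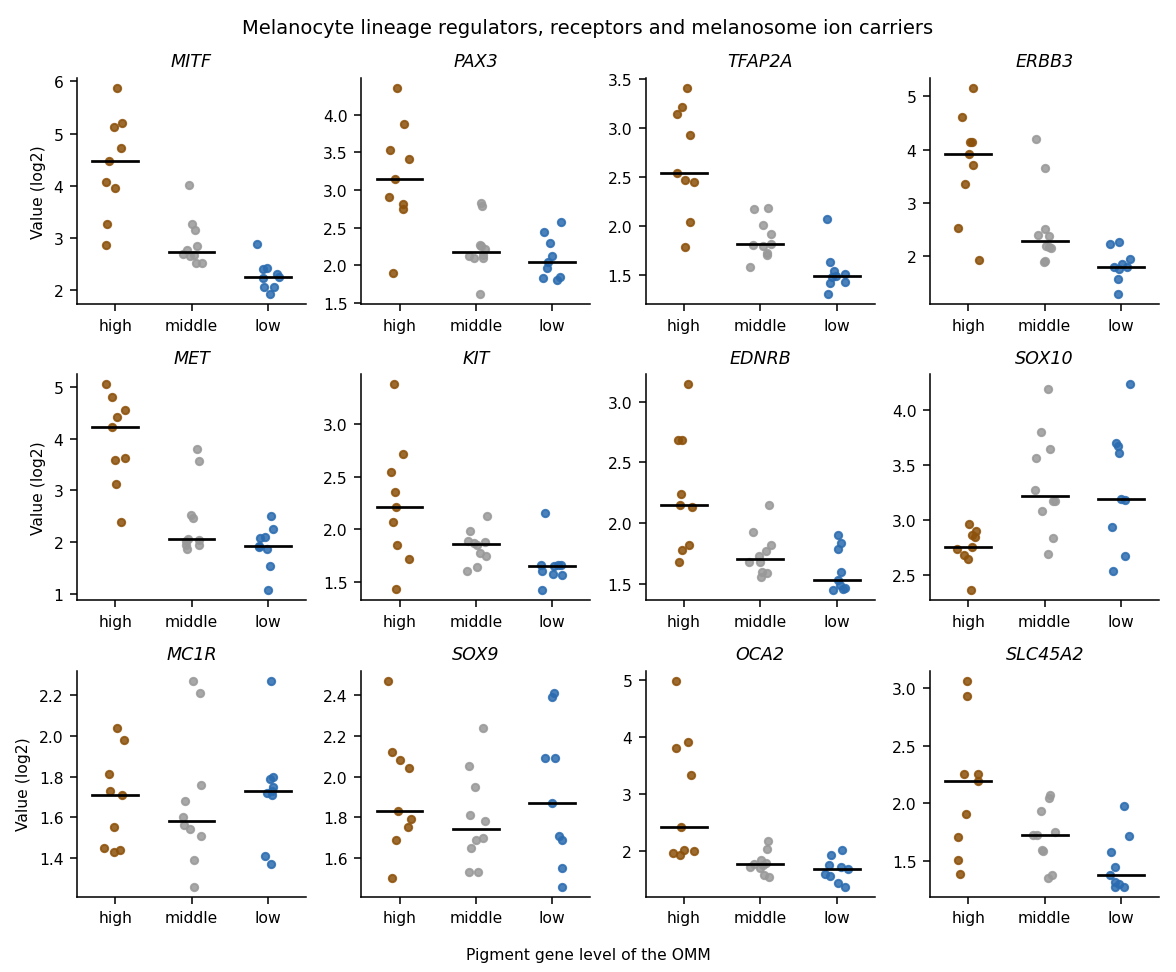
Log2 values of 12 lineage and pigment genes in the pigment-gene-high (n = 9), middle (n = 10) and pigment-gene-low (n = 9) OMMs, each point a tumour and each bar the group median; the vertical axes differ. MITF, PAX3, TFAP2A, ERBB3 and MET were called higher in pigment-gene-high OMMs, and the other 7 genes were not called; SOX10 has medians of 2.75 and 3.19 in pigment-gene-high and pigment-gene-low OMMs.

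Human melanoma cells in culture are commonly divided into a proliferative, MITF-rich phenotype and an invasive one. Of 46 measured genes of the proliferative list, 7 were higher and 0 lower in pigment-gene-high OMMs, against 1.18% and 0.442% of all symbols, with a median log2 difference of 0.44, against -0.04. The members called were CDK2, RAB38, MITF, TRPM1, DAPK1, GPR143 and RAB27A, of which 4 are also in the melanosome list, and DAPK1, a kinase linked to cell death, was named after its values were seen. Of 43 measured genes of the invasive list 0 were called in either direction, with a median difference of 0.04, and 25 of the 43 had a positive difference, against 44.2% of all symbols. AXL, the receptor kinase that typifies the invasive phenotype, had medians of 1.81 and 1.83 in pigment-gene-high and pigment-gene-low OMMs. NGFR, the nerve growth factor receptor of neural crest-like melanoma cells, had a difference of 0.14 ± 0.25 (adjusted p = 0.705). Of 39 measured proliferation genes, a list that does not hold CDK2, 0 were called in either direction, and MKI67 had a difference of 0.01 ± 0.16 (adjusted p = 0.959). MKI67 was low in both groups, with medians of 1.7 and 1.78, which limits what its difference can show. Of 28 measured melanoma driver and cell cycle genes 1 was called, the kinase CDK4, which was higher by 0.91 ± 0.20 (adjusted p = 0.0366). The neural crest and Schwann list had 1 call of 26 measured, TFAP2A, and the hypoxia and immediate early lists 0 of 29 and 0 of 26.

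After GM2A, the named genes of smallest p outside the melanosome, lineage and proliferative lists were, among those higher, CD44, NFE2L2, COX7A1, CDH3 and a locus named LOC484559. CD44, the receptor for hyaluronan, ran from 3.87 to 5.95 (median 5.11) in pigment-gene-high OMMs and from 2.72 to 4.16 (median 3.20) in pigment-gene-low OMMs. The groups overlapped at M replicate 12 on the high side and M replicate 6 on the low side, and the log2 difference was 1.77 ± 0.25 (SE, adjusted p = 0.00404). NFE2L2, the master regulator of antioxidant genes, ran from 3.25 to 5.38 (median 4.73) in pigment-gene-high OMMs and from 2.73 to 3.65 (median 2.86) in pigment-gene-low OMMs, a difference of 1.59 ± 0.23 (adjusted p = 0.0049). CDH3, the P-cadherin of epithelia and melanocytes, ran from 1.86 to 4.26 (median 2.95) in pigment-gene-high OMMs and from 1.34 to 1.82 (median 1.62) in pigment-gene-low OMMs, without overlap (difference 1.55 ± 0.24, adjusted p = 0.00661). COX7A1, a subunit of cytochrome c oxidase, ran from 4.09 to 7.03 in pigment-gene-high OMMs and from 1.32 to 4.04 in pigment-gene-low OMMs, also without overlap (difference 2.5 ± 0.38, adjusted p = 0.00642). LOC484559 differed by 1.19 ± 0.17 (adjusted p = 0.00404), while the second Transcript cluster of that symbol differed by -0.08 (adjusted p = 0.509).

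Lysosomal genes included 5 called higher of 45 measured, namely CTSK, NPC2, LAMP1, ATP6V0A1 and ATP6V1F, and 0 called lower, with a median log2 difference of 0.40. For this and the next 3 lists, 1.18% of all symbols were called higher, 44.2% had a positive difference and the median was -0.04. ATP6V0A1 and ATP6V1F, subunits of the proton pump, were named after their values were seen. CTSK, a collagen-cleaving protease, had medians of 8.39 and 6.34 in pigment-gene-high and pigment-gene-low OMMs and a difference of 2.45 ± 0.48 (adjusted p = 0.0292). NPC2, a carrier of cholesterol, and LAMP1, a protein of the lysosome membrane, differed by 1.15 and 1.09 (adjusted p = 0.0292 and 0.0344). Of 25 measured antioxidant and iron-handling genes 2 were higher, NFE2L2 and the peroxidase PRDX1 (1.3 ± 0.30, adjusted p = 0.0434). Of 56 measured genes of oxidative phosphorylation 6 were higher, among them UQCRC1 (0.56), ATP5MC3 (1.46) and COX5B (2.04), with adjusted p values between 0.0354 and 0.0486 over the 6 genes, and 52 of the 56 had a positive difference. Of 59 measured ribosomal protein genes 6 were higher, among them RPL28 (1.20), RPL8 (1.72) and RPS2 (1.26), with a median of 0.98 over the list.

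Genes with lower values mostly differed by less, and those named were low in both groups. Of the 184 clusters called lower, 19 differed by more than 1 log2 unit, the widest by -1.93. The 12 named genes of smallest p had medians between 1.37 and 2.13 in pigment-gene-high OMMs and between 1.77 and 2.67 in pigment-gene-low OMMs. Of all Transcript clusters, 74.2% had a mean under 2. CD5, a surface protein of T cells, ran from 1.65 to 2.09 (median 1.94) in pigment-gene-high OMMs and from 2.18 to 2.82 (median 2.39) in pigment-gene-low OMMs. The groups did not overlap, and the log2 difference was -0.55 ± 0.10 (SE, adjusted p = 0.0197). It was the one gene called of 24 measured for T and NK cells. Of the 24, 5 had a positive difference (20.8%, against 44.2% of all symbols) and the median was -0.1. LCK and CD8A had differences of -0.33 and -0.34 (adjusted p = 0.0868 and 0.112), and CD3E, part of the CD3 complex, of 0.16 ± 0.13 (adjusted p = 0.423). HAP1, a binding partner of huntingtin, ran from 1.28 to 1.79 in pigment-gene-high OMMs and from 1.83 to 2.85 in pigment-gene-low OMMs (difference -0.55 ± 0.12, adjusted p = 0.0344). CIITA, the switch of MHC class II genes and the only one of 15 measured antigen presentation genes to be called, differed by -0.59 ± 0.13 (adjusted p = 0.0363) at one Transcript cluster and by 0.03 (adjusted p = 0.861) at another. SNAI1, a transcription factor of epithelial-mesenchymal transition, differed by -0.56 ± 0.12 (adjusted p = 0.0344), and its relative SNAI2 had a difference of 1.23 ± 0.40 (adjusted p = 0.0794). The other genes named by the rule were MIR196B, COL2A1, CCL14, MED11, LOC100682772, DCHS2, IQCF3, FGF19 and SH3TC1, with differences from -0.74 to -0.35 and adjusted p values between 0.0192 and 0.0344. For DCHS2 and IQCF3 a second Transcript cluster was not called.

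Complete separation of the groups was rare. Every pigment-gene-high OMM lay above every pigment-gene-low OMM in 24 Transcript clusters (0.0741% of those tested) and below every one in 12 (0.0371%), and 21 and 9 of these passed the adjusted test. Besides those above, the separated genes included CERS6, a ceramide synthase (1.74, adjusted p = 0.0192), PSME4, a proteasome activator (1.3, adjusted p = 0.0158), the semaphorin receptor PLXNB1 (0.52, adjusted p = 0.0301) and the lymphatic growth factor VEGFC (0.44, adjusted p = 0.0344), which were named after their values were seen. Among the 24 were also 3 Transcript clusters with no gene symbol that held the same values in every tumour, from 3.13 to 6.76 in pigment-gene-high OMMs and from 1.39 to 2.36 in pigment-gene-low OMMs, and which therefore count as 1 measurement. Clusters that share all values occur elsewhere too, and the 269 clusters called higher held 254 distinct sets of values, the 184 called lower 171.

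The arrays of the groups differed as a whole. The percentage of Transcript clusters with a log2 value above 4 was 4.677% at the lowest, 6.039% at the median and 6.4% at the highest in pigment-gene-high OMMs, against 4.418%, 4.853% and 5.282% in pigment-gene-low OMMs. Of the high group only M replicate 12 and M replicate 7 lay within the range of the low group. The difference in means was 0.841 percentage points, with 5.769 ± 0.573% in pigment-gene-high and 4.927 ± 0.260% in pigment-gene-low OMMs (SD, n = 9 each; two-sided exact permutation test over all splits of the 18 tumours, p = 0.0021, adjusted p = 0.00629 over 3 array measures). The median of the arrays averaged 1.548 and 1.608 in pigment-gene-high and pigment-gene-low OMMs (adjusted p = 0.00654, exact permutation) and the interquartile range 0.815 and 0.728 (adjusted p = 0.0108, exact permutation). The authors list a PCR measure of RNA integrity for each dog, in an order of breeds that the replicate numbers follow. Read by that order, RNA was more intact in each pigment-gene-high OMM except M replicates 7 and 12 than in any pigment-gene-low OMM. RNA integrity therefore ran with the groups, and its part in the differences was not tested.

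**Figure D4:**
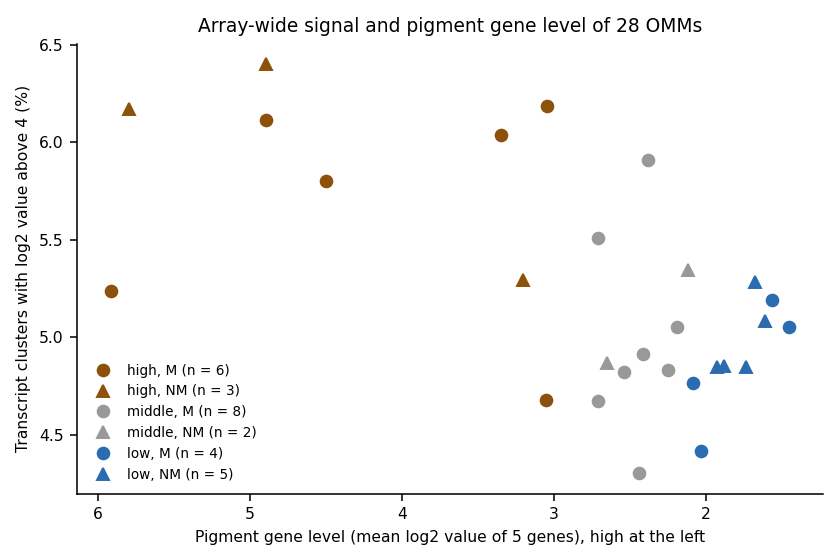
Percentage of Transcript clusters with a log2 value above 4 on each of the 28 arrays against the pigment gene level, with high levels at the left; circles are M and triangles NM OMMs, and colours mark the pigment-gene-high, middle and pigment-gene-low groups. Of the pigment-gene-high OMMs, 7 of 9 lie above 5.282%, the highest pigment-gene-low array.

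With this percentage as a covariate in limma, 2 Transcript clusters were called (0.00618% of those tested), CDK2 with a log2 difference of 2.76 and GM2A with 2.60, both at an adjusted p of 0.0280. GPNMB and RAB38 kept differences of 3.18 and 2.34, with adjusted p values of 0.259 each. Both TRPM1 (2.19) and COX7A1 (2.18) also kept most of their difference, whereas that of MITF went to 1.19 and that of CD44 to 1.02. In 53 called genes followed through every alternative fit, which are those named here other than DAPK1, POLR2F, LPCAT2, FBL, PTGDS and IGSF11, the difference kept its sign in this fit, 2 with a call. The lists parted likewise. The median over the ribosomal protein genes was 0.02 with the covariate, over oxidative phosphorylation 0.06, over lysosomal genes 0.12 and over melanosome genes 0.08, while that of the lineage regulators was 0.13, against 0.14 without it. Of the 5 lineage genes called, none was called with the covariate, and besides MITF their differences were 0.47 for PAX3, 0.83 for TFAP2A, 1.43 for MET and 1.61 for ERBB3. The high and low groups differ in the covariate itself, and how much of each difference belongs to array-wide signal was not tested.

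Markers of other cell types in the biopsy were read beside these results. Of 29 measured genes of oral epithelium 0 were called, while 22 had a positive difference (44.2% of all symbols did) and the median was 0.61. KRT5, a keratin of basal epithelium, ran from 1.51 to 6.73 (median 5.02) in pigment-gene-high OMMs and from 1.24 to 5.60 (median 1.99) in pigment-gene-low OMMs, a difference of 2.22 ± 0.78 (adjusted p = 0.0923). In the high group KRT5 was at 2.36, 1.52 and 1.51 in M replicates 18, 12 and 7 and higher in the other 6 tumours. The mean level of the epithelial list ran from 1.66 to 3.44 in pigment-gene-high OMMs and from 1.6 to 2.47 in pigment-gene-low OMMs. With the array-wide percentage in the model the median difference of the list was -0.06. Fibroblast and matrix genes had 1 gene called higher of 24, the gelatinase MMP2 (2.03 ± 0.37, adjusted p = 0.0216), with a median of 0.51 over the list, which was -0.08 with the array-wide percentage, and COL1A1 differed by 1.33 ± 0.56 (adjusted p = 0.133). Neutrophil genes were not called in any of 13 cases, 6 of the 13 had a positive difference and the median was -0.01. S100A8 had medians of 7.89 and 2.84 in pigment-gene-high and pigment-gene-low OMMs (adjusted p = 0.0847), while CSF3R had a difference of -0.3 ± 0.1 (adjusted p = 0.088). Genes of endothelium, B and plasma cells, macrophages, the interferon response and skeletal muscle had 0 calls of 19, 14, 20, 28 and 22 measured, and PTPRC, found on all leukocytes, a difference of -0.26 ± 0.32 (adjusted p = 0.577). The part of epithelium or stroma in the genes called was not tested.

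**Figure D5:**
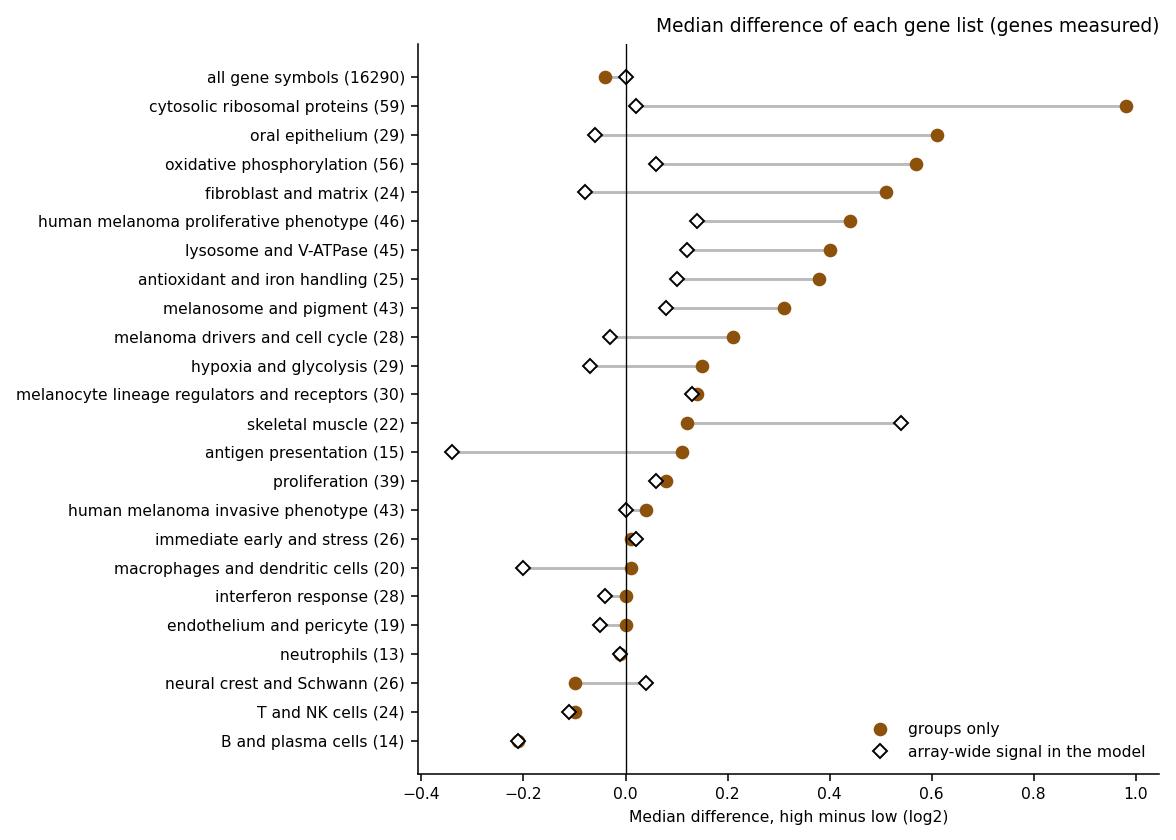
Median log2 difference, pigment-gene-high minus pigment-gene-low, over the measured genes of each list (number in brackets), in the fit with groups only (filled circles) and with the percentage of Transcript clusters above a log2 value of 4 in the model (open diamonds). The ribosomal protein list lies at 0.98 and 0.02 in the 2 fits, oral epithelium at 0.61 and -0.06, and the melanocyte lineage list at 0.14 and 0.13.

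Metastatic status and breed, which the ranking did not use, were compared between the groups. M OMMs made up 6 of 9 pigment-gene-high and 4 of 9 pigment-gene-low OMMs (Fisher's exact test, two-sided, p = 0.637). Golden Retrievers were 4 of 9 and 1 of 9 (p = 0.294, Fisher's exact test) and cross breeds 1 of 9 and 3 of 9 (p = 0.576, Fisher's exact test), and the adjusted p was 0.637 for each of the 3 labels. A p of this size does not show that the shares are alike. Breed class set apart Golden Retrievers, Labrador Retrievers and cross breeds and pooled all other breeds, which it therefore does not tell apart. With status in the model 93 Transcript clusters were called and with breed class 23. Among those called with breed class were CDK2 (adjusted p = 0.000393), GM2A (0.000393), COX7A1 (0.00514), GPNMB (0.0089), RAB38 (0.0127), CABLES1 (0.0188) and MITF (0.0311). CABLES1, whose product binds cyclin-dependent kinases, differed by 0.77 ± 0.13 without breed (adjusted p = 0.0156) and was named after its values were seen.

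Calls that did not rest on any single tumour were fewer. When each of the 18 OMMs was left out in turn, 47 of the 453 clusters, which held 43 distinct sets of values, were called in every fit. Of these 47 clusters 40 were higher and 7 lower, and 19 were also called with breed class in the model. They include GPNMB, CDK2, RAB38, TRPM1, COX7A1, GM2A, POLR2F, MITF, CD44, NFE2L2, HPS3, CABLES1, LPCAT2, FBL and LOC484559, which passed both. LPCAT2 and FBL, like PTGDS and IGSF11, were named after their values were seen. The highest adjusted p over the 18 fits was 0.000254 for CDK2, 0.00172 for GM2A, 0.00229 for RAB38 and 0.00299 for GPNMB. PTGDS, MET, IGSF11, ERBB3, CERS6, LYST, CDH3, PSME4, TFAP2A, CD5 and COL2A1 were called in each of the 18 fits but not with breed class.

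The 10 middle OMMs, which neither group holds, gave a separate reading. Their pigment gene levels covered only 2.12 to 2.71. In limma 0 Transcript clusters had a slope on the pigment gene level at an adjusted p under 0.05 (0% of those tested), 782 had an unadjusted p under 0.05, and with trend and robust options the numbers were 0 and 778. Of the 269 clusters higher in pigment-gene-high OMMs 189 (70.3%) had a positive slope among the middle tumours, and of the 184 lower ones 64 (34.8%) did, against 49.5% of all clusters tested. RAB38 had a slope of 3.34 ± 1.22 log2 units per unit of pigment gene level (SE), MITF of 0.99 ± 0.63, GPNMB of 1.51 ± 1.06, CDK2 of 1.44 ± 1.31 and GM2A of 0.17 ± 1.09. Of these 5 slopes that of RAB38 was more than 2 SE from 0. The middle tumours lay between the groups by median in all 5 of these genes, at 4.32 for RAB38 and 3.79 for CDK2, while in TRPM1 their range of 1.45 to 2.39 was close to that of the pigment-gene-low OMMs. Other genes called higher were among the clusters without a positive slope. Slopes were -1.47 ± 1.12 for CD63, -0.73 ± 1.11 for ERBB3, -0.28 ± 0.53 for CDH3 and -0.07 ± 1.04 for CD44.

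The slope on pigment gene level differed between M and NM OMMs in 11 Transcript clusters (0.0340% of those tested; limma over all 28 tumours), each with the steeper slope in NM OMMs. KRT24, an epithelial keratin, and PLSCR4, a phospholipid scramblase, showed the widest gaps, with slopes of -0.16 ± 0.05 in M and 0.74 ± 0.12 in NM OMMs for KRT24 and of -0.05 ± 0.04 and 0.80 ± 0.11 for PLSCR4. In each of the 11 clusters NM replicates 2 and 3, both Golden Retriever tumours of the high group, lay above the highest of the other 8 NM OMMs. PLSCR4 was at 4.5 and 4.56 in these 2 tumours and from 1.26 to 1.67 in the other 8. Without both tumours 0 of the 11 were called, while 9 other clusters were.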

How the data were processed

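RNA from the FFPE biopsies was measured on Canine Gene ST arrays, 1 for each of 28 primary OMMs. The authors used Affymetrix Expression Console 1.3, left out tumours with aberrant array quality, ran RMA, and deposited log2 gene-level values for 32391 Transcript clusters. RMA makes the distributions of probe signals alike, so values are relative within an array. The deposited gene-level distributions still differed between arrays, as given above. Of the clusters, 16878 carried 1 gene symbol, 289 several and 15224 none, and 2686 shared all values with another. The number of arrays limits precision.

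The members and gene lists were chosen with earlier results of these data known. Groups were compared in limma 3.58.1 (R 4.3.3) over 32386 clusters, p values were adjusted by Benjamini-Hochberg, and calls were made at 0.05. The fit was tested on simulated data whose clusters varied independently and without array-wide differences. That test therefore cannot speak to the array-wide differences of these tumours. Arrays and labels were compared by exact tests in SciPy 1.17.1. Slopes on pigment gene level were fitted in the middle OMMs and, by status, in all OMMs. Differences are pigment-gene-high minus pigment-gene-low. Named genes were the 5 of the ranking, the 12 of smallest p in each direction (called, 1 symbol, mean over the median of all clusters), up to 3 of smallest p in each of 23 lists, and 19 single genes. Others are marked as named after their values were seen. Lists were read at the brightest cluster of each symbol, and members with none were not analysed here. Gene order came from RefSeq, and no coordinates were used because the genome build of the array is not given in the sources used here.

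Replicate numbers only count tumours within M and NM, so they do not pair tumours across groups and the fit has no block. Alternatives covered limma's options, array weights, the methods' t-test, covariates, blocks, normalisation, filters, group sizes, the level's definition and each tumour left out.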

Additional observations from a re-analysis of the deposited data

Results flagged for a closer look

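In 22 of 232 checks, 1 tumour lay far from the other 8 of its group for a named gene, where chance flags about 1 in 20 groups. M replicate 1, the tumour with the lowest pigment gene level, stood high within the pigment-gene-low OMMs in KRT5 (5.60, the others 1.24 to 2.31), SNAI2 (5.07, the others 1.74 to 2.51), EMCN (4.06, the others 1.53 to 2.47) and ATP5MC3 (4.21, the others 2.46 to 3.13). M replicate 12, of the pigment-gene-high OMMs, was lowest in CD63 (5.57, the others 8.24 to 9.49) and S100A12 (2.47, the others 6.34 to 9.33) and highest in FGF19 (2.27). Within the pigment-gene-high OMMs, NM replicate 1 was highest in the muscle gene NEB (5.21, the others 1.65 to 2.48) and in LOC100682772 (2.16). M replicate 10 was highest in the interferon gene MX1 (5.23, the others 1.58 to 2.86) and in MKI67 (2.77), M replicate 8 in EMCN (5.08) and TPM1 (4.32), and NM replicate 2 in VEGFC (2.72). Within the pigment-gene-low OMMs, CDK2 was at 3.69 in M replicate 4 (the others 1.81 to 2.73) and NFE2L2 at 3.65 in M replicate 6 (the others 2.73 to 3.07). M replicate 17 was highest in IQCF3 (2.86) and TFAP2A (2.07), NM replicate 4 in KIT (2.16) and MC1R (2.27), and NM replicate 6 in DLA88 (3.68) and HSP90AA1 (2.54).

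The slope on pigment gene level differed between M and NM OMMs by a limma interaction term in 11 Transcript clusters. The slope in M minus that in NM OMMs was -0.90 for KRT24 (adjusted p = 0.00107), -0.85 for PLSCR4 (adjusted p = 0.000698), -0.66 for CLCA2, -0.57 for ADGRL3, -0.52 for GRIA1, -0.51 for GPM6A, -0.50 for HMBOX1, -0.47 for UGCG and -0.43 for LRIG3. For the clusters 14297065 and 14351666, which carry no symbol, it was -0.50 and -0.35. Without NM replicate 2, 6 of the 11 were still called, without NM replicate 3, 3 of them, and without both, 0 (9 other clusters were called), a choice made after seeing the data. With the array-wide percentage in the model all 11 were called.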

How the results depend on the processing

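The 53 called genes followed through the alternatives kept the sign of their difference under every alternative run. They were chosen by their calls in these same tumours, which the alternatives largely share, so the kept signs are no separate support. The number of called Transcript clusters, 453, depended on most choices. It was 3498 with array weights, 197 by the methods' t-test after adjustment, 93 with metastatic status, 23 with breed class, 190 with breed as a random block, 2 with the array-wide percentage, 3 with the first principal component and 0 with status and percentage together (limma; 1598 at an unadjusted p under 0.05). Quantile normalisation gave 260, a filter on the mean 1645, groups of 7 against 7 gave 97 and of 14 against 14 gave 4. A level without PMEL gave 8, without TYRP1 2410 and without DCT 229, and leaving out cross breeds, chosen after seeing the data, 55. Median centring gave 357 calls, of which 77.0% were higher, against 59.4%. With the replicate number as a random block 357 were called, including 50 of the 53 genes.

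Leaving out 1 tumour gave 52 to 3702 calls. The count was over 1.5 times higher without M replicates 12 (3702), 1 (2727) and 7 (2581). In the authors' listing of RNA integrity, read by breed order, M replicates 12 and 7 had the least intact RNA of the pigment-gene-high OMMs. M replicate 1 had the most intact RNA of the pigment-gene-low OMMs, and whether this bears on the counts was not tested. The count was lower by as much without M replicates 18 (164), 8 (103), 4 (86), 17 (70), 10 (60) and 16 (52) and without NM replicates 6 (179), 7 (157), 4 (151), 10 (98), 8 (88), 3 (77) and 2 (54).

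The slope difference between M and NM OMMs was called in 17 clusters with trend and robust options, 19 with the array-wide percentage, 102 without NM replicate 2 7 without NM replicate 3 and 9 without both. With 14 tumours in each group the array measures differed by 0.407 percentage points, -0.035 (median) and 0.051 (interquartile range), with an adjusted p of 0.0599 each (permutation test). Of the 63 named genes not called, 19 changed sign under some alternative without being called. The causes were not tested. Most levels lie near the low end of the scale, which limits what differences of low genes can show.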

Other observations

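Lists for other cell types and states gave further values. Among the 10 middle OMMs, 36 of 39 proliferation genes (92.3%) had a positive slope on pigment gene level, against 51.2% of all gene symbols. None of these slopes was called, and the 39 genes were read on the same 10 arrays, so they are not independent. In pigment-gene-high against pigment-gene-low OMMs the median difference of the same genes was 0.08 and 0 were called. The mean level of skeletal muscle genes ran from 1.44 to 4.16 in pigment-gene-high OMMs, with a median of 1.53. In pigment-gene-low OMMs it ran from 1.55 to 1.92, with a median of 1.73. Antigen presentation genes had a median log2 difference of 0.11, and of -0.34 with the array-wide percentage in the model. The widest differences of the series, 4.47 and 4.42, were in the Transcript clusters 14394797 and 14360984, which carry no gene symbol and were called in each of the 18 fits with 1 tumour left out.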
